A study of Mus musculus with 4 samples.

Results

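The genes of cholesterol synthesis and of its control by SREBP2 were followed by RNA-seq in whole right adrenals of C57BL/6 mice, all adult males, collected 1 h after injection into the peritoneum. The treated animals received dexamethasone, a synthetic glucocorticoid, at 10 µg each, and the controls received the vehicle, phosphate-buffered saline (PBS). Each group held 5 mice, whose glands were pooled into 2 libraries, from 2 mice and from 3 mice, which gives n = 2 for every group value below. The labels do not say which pool is replicate 1, and they name no genetic change in either group. The spread behind each p-value is therefore that between pools, not between animals. The members were taken by gene symbol from the deposited read counts as 29 named enzymes and regulators of the pathway. All 29 were found among the 54532 listed genes, and all 29 were among the 16027 genes that passed the filter on low counts.

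Cells build cholesterol from acetyl-CoA through mevalonate, isoprenoid diphosphates, squalene and lanosterol. Most of these enzymes are transcribed under SREBP2, a membrane-bound transcription factor that the escort protein Scap carries from the endoplasmic reticulum to the Golgi, where site-1 and site-2 proteases release its active part. Insig proteins hold Scap in the endoplasmic reticulum when sterols are plentiful, and Insig1 is itself a target gene of SREBP2. In the adrenal cortex cholesterol is the substrate of steroid hormones, and synthesis adds to what the gland takes up from lipoproteins.

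Total counts assigned to genes ran from 21904510 to 26948588 per library. The tissue label was checked with 8 steroidogenic markers of the cortex (Cyp11a1, Cyp11b1, Cyp21a1, Hsd3b1, Star, Nr5a1, Fdx1 and Mc2r), whose summed level was 46260 and 42880 CPM (read counts relative to the TMM-scaled library size) in the dexamethasone libraries, against 61920 and 62810 CPM in the PBS libraries. Of these 8, Nr5a1 and Fdx1 passed the test as lower, beside 1.37% of all genes tested. All 8 had both dexamethasone libraries below both PBS libraries, as did 29.7% of all genes. The 8 chromaffin cell markers summed to 11270 and 8616 CPM after dexamethasone, against 7770 and 11870 CPM after PBS. The 8 fat cell markers summed to 384 and 244 CPM after dexamethasone, against 282 and 403 CPM after PBS. The 5 liver markers summed to 28.9 and 3.27 CPM after dexamethasone, against 78.6 and 9.04 CPM after PBS, so both replicate 1 libraries held more of them. The 8 macrophage markers summed to 318 and 265 CPM after dexamethasone, against 249 and 318 CPM after PBS, and the 8 endothelial markers to 1172 and 1213 CPM after dexamethasone, against 1067 and 1013 CPM after PBS. The 5 red blood cell markers summed to 147 and 137 CPM after dexamethasone, against 226 and 394 CPM after PBS. Among these lists Mrc1 and Cd163 of the macrophage markers and Flt1 of the endothelial markers passed as higher, and Hba-a1, Hba-a2 and Hbb-bs of the red blood cell markers as lower. Of all genes tested 3.26% passed as higher. The log2 fold change was below 0 for 4 of 8 macrophage, 3 of 8 endothelial and 5 of 5 red blood cell markers. The part of these cell types in the results below was not tested, and in whole tissue fewer cells of a type and less RNA per cell cannot be told apart.

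The transcripts that fell 1 h after dexamethasone were those of Hmgcs1, an early enzyme of the mevalonate arm, of Dhcr7, one of the last enzymes of the pathway, and of Insig1, which holds SREBP2 back. Hmgcs1 was 1.79-fold lower, Dhcr7 1.63-fold lower and Insig1 1.85-fold lower than after PBS. By edgeR's quasi-likelihood test, with p adjusted by Benjamini-Hochberg over all 16027 genes and a threshold of 0.05, 3 of 29 members (10.3%) were lower, 0 were higher and 26 did not pass. Across all genes tested, 1.37% were lower and 3.26% higher at this threshold, and 11 of 29 members had an unadjusted p under 0.05, beside 4403 of all 16027 genes. Of the 29, 15 (51.7%) had both dexamethasone libraries below both PBS libraries, against 29.7% of all genes, and 5 (17.2%) had both above, against 30.8% of all genes. The fold change was below 0 on the log2 scale for 23 members (79.3%), against 49% of all genes. The median of the 29 was −0.28, beside 0.011 for all genes tested. The members called lower numbered 5 by DESeq2, where 5.42% of all genes were lower, and 1 with the replicate number as a block, where 0.555% were. They numbered 10 with no filter on low counts, where 4.91% of all genes were lower. Log2 fold changes also correlated with log2 listed gene length, at r = 0.392 across 14250 protein-coding genes and r = 0.519 across the members. Genes are not independent replicates. With this trend removed from each library 26 members had a log2 fold change below 0, but the values of all genes also shifted down. The median was then −0.044 for all genes tested and −0.30 for the members. The members called lower were then the same 3, where 1.69% of all genes were lower.

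**Figure D1:**
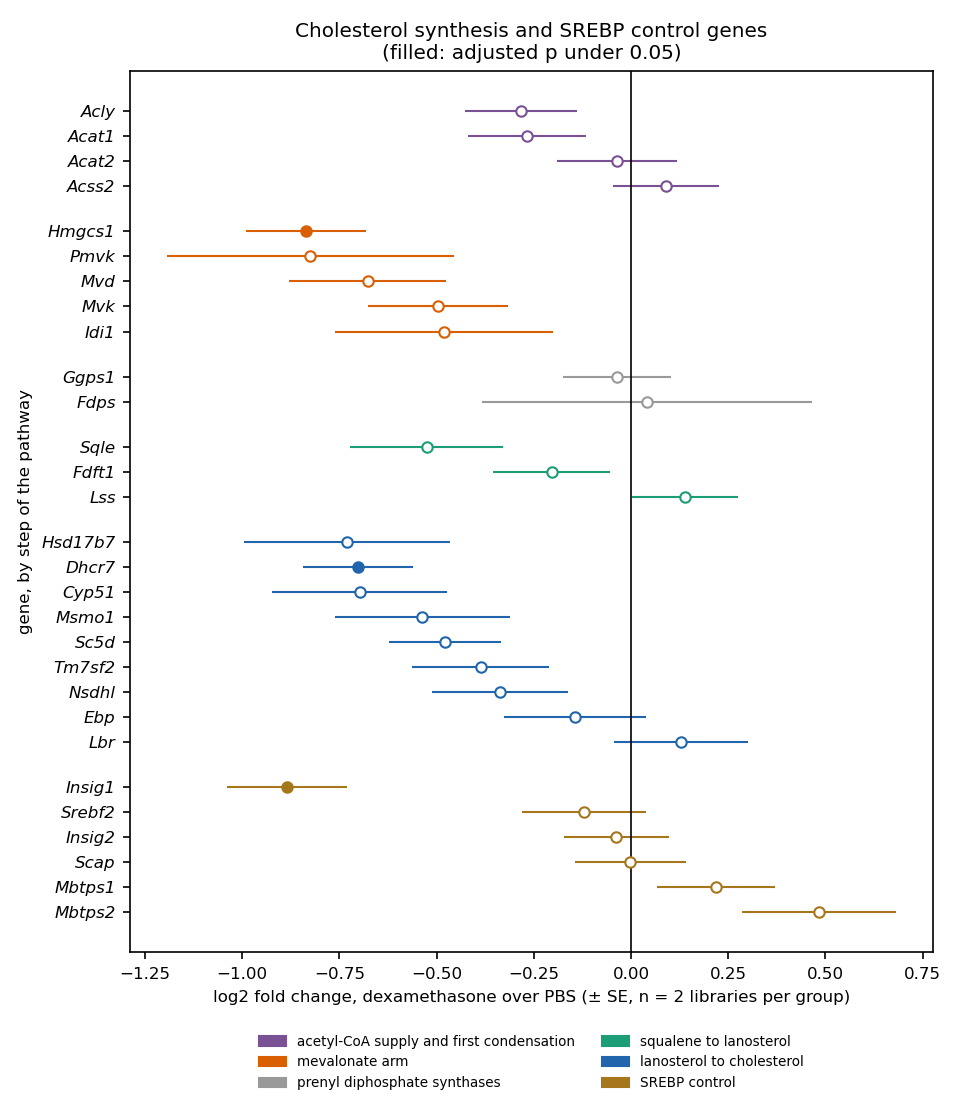
Log2 fold change of the 29 genes, dexamethasone over PBS, with standard errors from the fit (n = 2 libraries per group), grouped by step; filled points passed the test. The 5 genes of the mevalonate arm all lie left of 0, from −0.84 for Hmgcs1 to −0.48 for Idi1, while the SREBP control genes spread from −0.89 for Insig1 to 0.48 for Mbtps2.

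The upstream sequences of the 3 genes that fell are shown because SREBP2 acts at promoters of this pathway, and no binding was measured here. They are the 250 bases before the RefSeq transcript start nearest to the gene's listed 5′ end (GRCm38.p6, plus strand, 5′ to 3′), at chr13:119690101-119690350 for Hmgcs1, chr7:143822917-143823166 for Dhcr7 and chr5:28071162-28071411 for Insig1. Capitals mark matches on either strand to CACNCCAC, a loose form of the sterol regulatory element core, and to the CCAAT box, which often lies beside it.
Hmgcs1: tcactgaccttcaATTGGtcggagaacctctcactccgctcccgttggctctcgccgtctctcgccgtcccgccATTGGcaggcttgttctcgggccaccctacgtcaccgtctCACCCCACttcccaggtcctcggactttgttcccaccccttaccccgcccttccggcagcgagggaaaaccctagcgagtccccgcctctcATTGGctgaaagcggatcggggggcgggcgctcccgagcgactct
Dhcr7: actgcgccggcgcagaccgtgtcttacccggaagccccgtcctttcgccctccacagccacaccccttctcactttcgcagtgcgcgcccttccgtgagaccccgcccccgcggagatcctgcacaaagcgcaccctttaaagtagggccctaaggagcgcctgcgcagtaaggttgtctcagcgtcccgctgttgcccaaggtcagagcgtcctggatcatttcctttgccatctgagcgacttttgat
Insig1: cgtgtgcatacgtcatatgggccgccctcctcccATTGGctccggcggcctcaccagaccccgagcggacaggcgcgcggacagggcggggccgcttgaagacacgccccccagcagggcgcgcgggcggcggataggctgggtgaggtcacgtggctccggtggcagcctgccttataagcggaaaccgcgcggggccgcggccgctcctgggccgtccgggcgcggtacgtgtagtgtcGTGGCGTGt

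Hmgcs1 held the strict core CACCCCAC, with its first base 136 bases before the start, and 3 CCAAT boxes on the opposite strand. Insig1 held a loose match on the opposite strand that begins 9 bases before the RefSeq start, and 1 CCAAT box. Dhcr7 held neither in this window. The windows of Insig1 and Dhcr7 run past the listed 5′ ends of these genes, at 28071363 and 143823145. The loose match of Insig1 therefore lies inside the gene as listed, not upstream of it. RefSeq upstream sequence was found for 25 of the 29 members. The loose core was in 3 of these 25 (12.0%; Acat2, Hmgcs1 and Insig1), against 5.29% of all 32851 upstream windows in the table, and its strict form CACCCCAC, which the loose one includes, was in 2 (8.0%), against 2.58%. The CCAAT box was in 19 of the 25 (76.0%), against 33.8% of all windows, and the GC box GGGCGG in 20 (80.0%), against 32.7%. The E-box CACGTG was in 3 (12.0%), against 6.02%, and AGAACA, a half-site of the glucocorticoid receptor element, in 5 (20.0%), against 16.1%. Insig1 held the E-box, Hmgcs1 held AGAACA, and Hmgcs1, Dhcr7 and Insig1 all held the GC box. These matches are not marked in the sequences. The sets compared are unlike: all windows means every start in the table, with no filter on expression. Each member, by contrast, passed the filter on low counts and was represented only by its nearest start. These are matches of letters on both strands, and a window without one says nothing of the factor.

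At the entry to the pathway the transcript of ATP citrate lyase was abundant and none of the 4 genes passed. Acly, which makes cytosolic acetyl-CoA from citrate, had 1914 and 1967 CPM after dexamethasone, against 2439 and 2282 CPM after PBS. Both dexamethasone libraries were below both PBS libraries, and the log2 fold change was −0.28 ± 0.14 (SE, edgeR adjusted p = 0.238). Acss2, which makes acetyl-CoA from acetate, had 63.4 and 60.5 CPM after dexamethasone, against 60.1 and 56.1 CPM after PBS. Acat1, the mitochondrial thiolase, had 165 and 137 CPM after dexamethasone, against 175 and 189 CPM after PBS (−0.27 ± 0.15, edgeR adjusted p = 0.279). Acat2, the cytosolic thiolase that makes acetoacetyl-CoA, had overlapping groups and a log2 fold change of −0.036 ± 0.16. Its counts are uncertain, since 1477 bases of its transcripts are 97.7% identical to Acat3, counted 20 to 51 times per library, and 445 bases 98.7% identical to Tcp1, counted 3470 to 4654 times, while Acat2 itself was counted 842 to 1004 times. The log2 fold change of Acss2 was 0.091 ± 0.14 and stood at −0.16 when a trend with gene length was removed.

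In the mevalonate arm all 5 genes had a negative log2 fold change, against 49% of all genes tested. Of the 5, 1 passed as lower, against 1.37% of all genes. Hmgcs1, the cytosolic HMG-CoA synthase (ENSMUSG00000093930, GRCm38 chromosome 13, 119690379 to 119708260), had 70.2 and 72.4 CPM after dexamethasone, against 113 and 141 CPM after PBS. The groups were well apart, at 71.3 ± 1.51 CPM after dexamethasone, against 127 ± 19.9 CPM after PBS (SD, n = 2), with a log2 fold change of −0.84 ± 0.15 (SE, edgeR adjusted p = 0.023). That call ended at an adjusted p of 0.0625 with the replicate number as a block, where the fold change was −0.83, and held at 0.00832 with the length trend removed as well (−0.90). The adjusted p ran from 2.86e-05 to 0.0625 over all settings tried.

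Mvk, the kinase that phosphorylates mevalonate, had 25.8 and 24.2 CPM after dexamethasone, against 29.9 and 40.8 CPM after PBS. Its log2 fold change was −0.50 ± 0.18 (edgeR adjusted p = 0.121). Mvd, the decarboxylase that yields isopentenyl diphosphate, had 10.9 and 9.41 CPM after dexamethasone, against 14.0 and 18.6 CPM after PBS (−0.68 ± 0.20, edgeR adjusted p = 0.0795). In both genes the 2 dexamethasone libraries lay below both PBS libraries. Pmvk, the second kinase of the arm, had 11.3 and 7.27 CPM after dexamethasone, against 9.87 and 23.2 CPM after PBS. Its groups overlapped, and its log2 fold change of −0.82 ± 0.37 (edgeR adjusted p = 0.187) stood at −0.10 without PBS replicate 2. Idi1, the isomerase of the isoprenoid units, was added here after its values were seen, with 22.8 CPM in both dexamethasone libraries, against 21.1 and 42.7 CPM in the PBS libraries. Its log2 fold change of −0.48 ± 0.28 became 0.10 with PBS replicate 2 left out. With PBS replicate 1 left out it was −0.92. A fit without a library leaves 1 library in that group, so its spread comes from the other group alone. Mvk, Mvd and Pmvk stood at −0.73, −0.89 and −1.34 without PBS replicate 1, and Pmvk at −1.18 without dexamethasone replicate 1. With all libraries and no filter on low counts, Mvd and Pmvk passed (−0.68 and −0.82). Without PBS replicate 2, Mvk stood at −0.27.

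**Figure D2:**
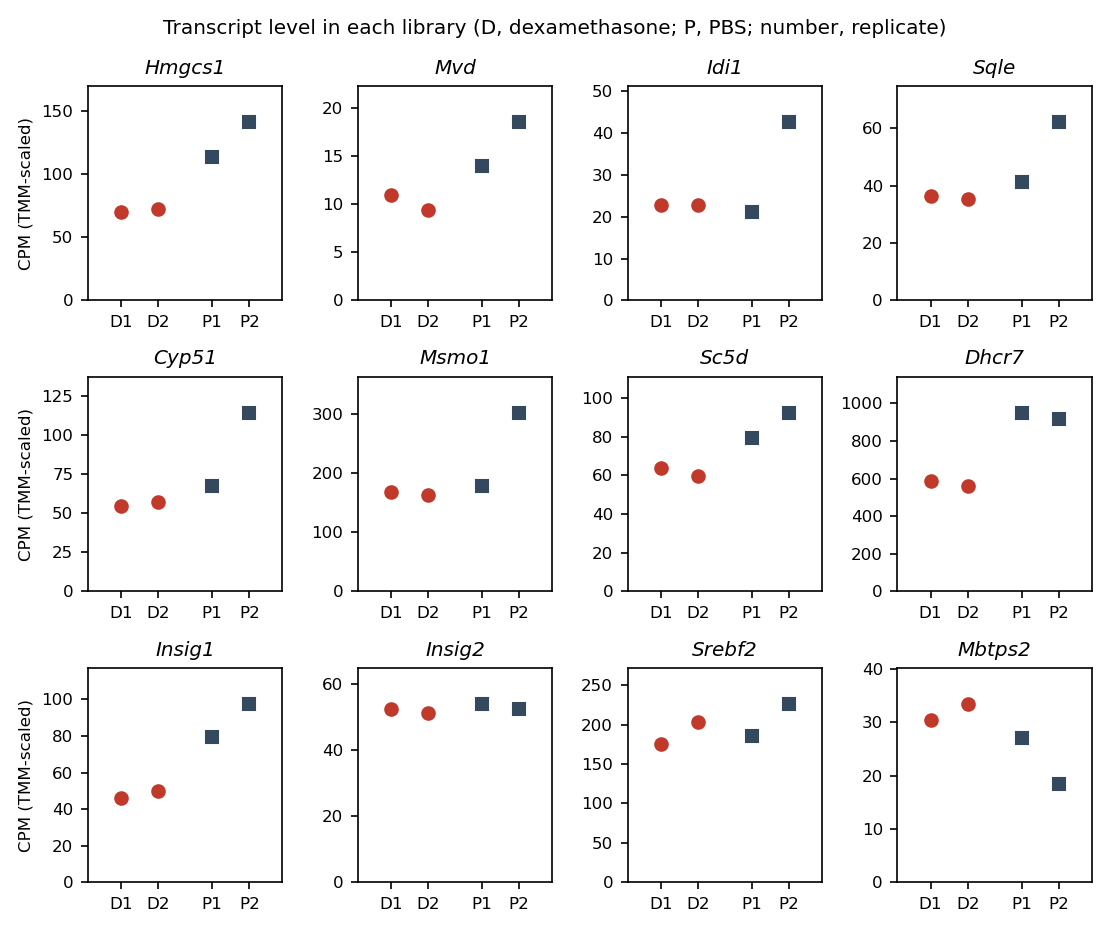
TMM-scaled CPM of 12 genes in each library, on axes that start at 0, with dexamethasone (circles) left of PBS (squares). Hmgcs1, Dhcr7 and Insig1 have both PBS libraries well above both dexamethasone libraries, while for Idi1, Msmo1, Sqle and Cyp51 PBS replicate 2 lies far above PBS replicate 1.

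The prenyl diphosphate synthases did not differ beyond their errors. Ggps1, which makes geranylgeranyl diphosphate for protein prenylation, had 51.5 and 51.6 CPM after dexamethasone, against 55.8 and 49.9 CPM after PBS (−0.037 ± 0.14, edgeR adjusted p = 0.889). Fdps, which makes farnesyl diphosphate at the branch to squalene, was represented by 23 and 34 reads after dexamethasone, against 26 and 22 reads after PBS. At 0.25 CPM per kilobase of listed length after dexamethasone and 0.24 after PBS, it was the lowest of the 29 genes on that scale. Its transcripts share at least 300 bases at 95% identity or more with 5 other annotated genes, 4 of them processed pseudogenes and the other, Gm43738, with 1124 bases of exon in common with Fdps on its strand. Those 5 together were counted 9 and 7 times after dexamethasone and 2 and 7 times after PBS. Reads that match several copies can be lost in counting, so the level and the log2 fold change of Fdps (0.042 ± 0.42) are uncertain.

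From squalene to lanosterol no gene passed, and the 3 enzymes differed in sign. Sqle, the squalene epoxidase, had 36.3 and 35.4 CPM after dexamethasone, against 41.2 and 62.3 CPM after PBS. The groups did not overlap, but PBS replicate 2 was 1.51-fold above PBS replicate 1, and the log2 fold change of −0.53 ± 0.20 (edgeR adjusted p = 0.13) stood at −0.21 without it. Without PBS replicate 1 Sqle stood at −0.81, and with all libraries and no filter on low counts it passed (−0.53). Fdft1, the squalene synthase, had 41.3 and 41.4 CPM after dexamethasone, against 43.2 and 52.1 CPM after PBS (−0.20 ± 0.15, edgeR adjusted p = 0.407). A further limit for Fdft1 is that 774 bases of its exons lie opposite exons of Ctsb, a gene counted 35099 to 39115 times per library. Lss, the cyclase that forms lanosterol, had 53.3 and 53.6 CPM after dexamethasone, against 47.1 and 49.99 CPM after PBS. Its log2 fold change was 0.14 ± 0.14 and turned to −0.13 with the length trend removed.

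From lanosterol to cholesterol 8 of 9 genes had a negative log2 fold change, against 49% of all genes tested. Both dexamethasone libraries were below both PBS libraries for 7 of the 9, against 29.7% of all genes. In this step 1 gene passed as lower (11.1%), against 1.37% of all genes. Dhcr7, the reductase of the last steps (ENSMUSG00000058454, chromosome 7, 143823145 to 143848410), had 587 and 559 CPM after dexamethasone, against 950 and 916 CPM after PBS. It stood at 573 ± 19.5 CPM after dexamethasone, against 933 ± 24.2 CPM after PBS (SD, n = 2), so the replicates of each group lay close together and the groups far apart. The log2 fold change was −0.70 ± 0.14 (edgeR adjusted p = 0.0314), and −0.83 with the length trend removed. The call ended without dexamethasone replicate 2 (log2 fold change −0.67) and with the replicate number as a block (edgeR adjusted p = 0.0961, −0.70). It held with the block and the length trend removed together (edgeR adjusted p = 0.0168, −0.83).

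Sc5d, a sterol desaturase that acts just before Dhcr7, had 63.7 and 59.6 CPM after dexamethasone, against 79.4 and 92.3 CPM after PBS (−0.48 ± 0.14, edgeR adjusted p = 0.0812). Cyp51, the cytochrome P450 that demethylates lanosterol, had 54.6 and 57.3 CPM after dexamethasone, against 67.3 and 114 CPM after PBS (−0.70 ± 0.23, edgeR adjusted p = 0.0932). Hsd17b7, a ketoreductase of the demethylation steps, had 12.2 and 10.6 CPM after dexamethasone, against 13.6 and 24.5 CPM after PBS (−0.73 ± 0.27, edgeR adjusted p = 0.12). In all 3 genes PBS replicate 2 was the highest library. Cyp51 and Sc5d passed by DESeq2, with log2 fold changes of −0.71 and −0.49. With no filter on low counts all 3 genes passed (Cyp51 −0.70, Sc5d −0.48 and Hsd17b7 −0.73). Without PBS replicate 1, Cyp51 stood at −1.05, Sc5d at −0.60 and Hsd17b7 at −1.12. Without PBS replicate 2, Cyp51 stood at −0.28, Hsd17b7 at −0.26 and Sc5d at −0.38. An exon of Cyp51 lies opposite 166 bases of Akap9, which was counted 4362 and 5018 times after dexamethasone and 3156 and 1818 times after PBS.

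Msmo1, the methylsterol oxidase, was added after its values were seen, with 168 and 162 CPM after dexamethasone, against 178 and 302 CPM after PBS. Its log2 fold change of −0.54 ± 0.22 shrank to −0.12 when PBS replicate 2 was left out. With PBS replicate 1 left out it was −0.89. The sterol reductase genes Tm7sf2 and Lbr, whose products can carry out the same step, had log2 fold changes of −0.39 ± 0.18 and 0.13 ± 0.17. Lbr, which also encodes a lamin receptor of the inner nuclear membrane, had both dexamethasone libraries above both PBS libraries. Nsdhl, a dehydrogenase of the demethylation steps, was at −0.34 ± 0.18, and the sterol isomerase gene Ebp at −0.14 ± 0.18 with overlapping groups. None of these 5 genes passed in the filtered fit of all libraries, and Msmo1 passed with no filter on low counts (−0.54). The exons of Tm7sf2 share 532 bases with Vps51 on the same strand, which limits its value.

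**Figure D3:**
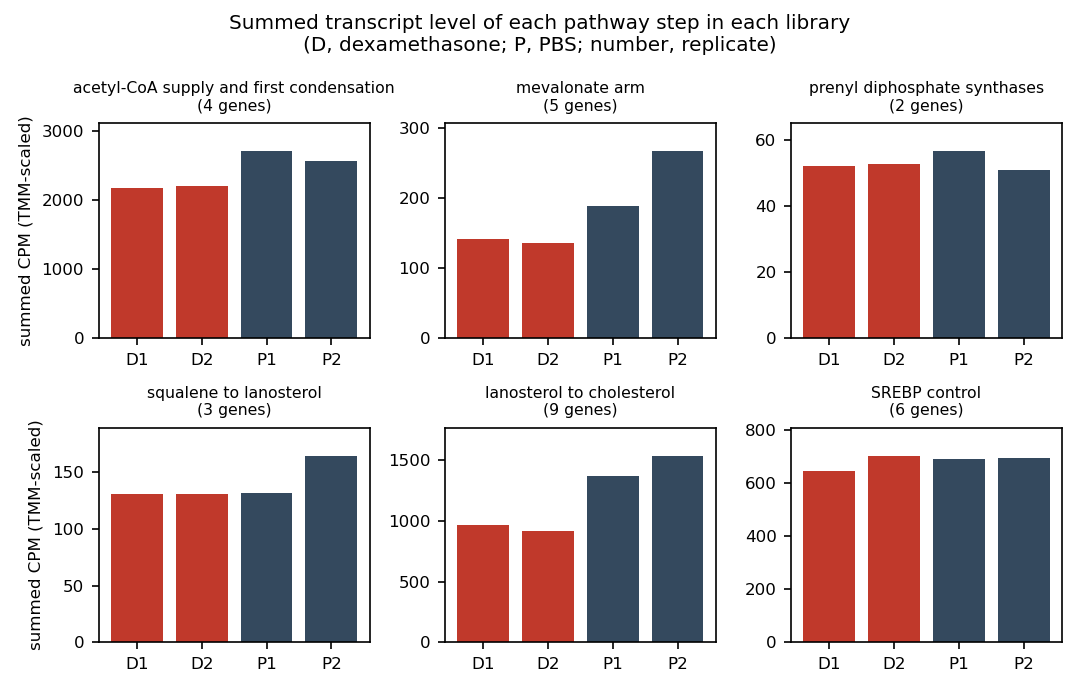
Summed TMM-scaled CPM of each step in each library; sums are not corrected for gene length, so Acly and Dhcr7 weigh most in their steps. The lanosterol to cholesterol genes sum to 965 and 920 CPM after dexamethasone, against 1369 and 1539 CPM after PBS, and the SREBP control genes to 644 and 703 CPM after dexamethasone, against 691 and 693 CPM after PBS.

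Among the genes that control SREBP2, 1 of 6 passed as lower, against 1.37% of all genes tested. Insig1 (ENSMUSG00000045294, chromosome 5, 28071363 to 28078662), which retains Scap in the endoplasmic reticulum, had 45.9 and 49.9 CPM after dexamethasone, against 79.3 and 97.7 CPM after PBS. It stood at 47.9 ± 2.84 CPM after dexamethasone, against 88.5 ± 13.0 CPM after PBS (SD, n = 2), with no overlap. Its log2 fold change of −0.89 ± 0.15 (SE, edgeR adjusted p = 0.0193) was the most negative of the 29. Insig1 was also the member that passed in every setting with 2 libraries per group, with adjusted p from 1.19e-05 to 0.0488. Its log2 fold change ran from −1.05 without PBS replicate 1 to −0.74 without PBS replicate 2.

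Insig2, the other Insig gene, had 52.4 and 51.2 CPM after dexamethasone, against 54.1 and 52.4 CPM after PBS. The groups overlapped, and the log2 fold change was −0.038 ± 0.13 (edgeR adjusted p = 0.881). The level per kilobase of listed length was 15.5 CPM for Insig1 and 14.9 CPM for Insig2 after dexamethasone, against 28.6 CPM for Insig1 and 15.3 CPM for Insig2 after PBS. The difference between the changes of these genes was not tested.

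Srebf2, which encodes SREBP2, had 175 and 203 CPM after dexamethasone, against 185 and 226 CPM after PBS. Scap had 124 and 143 CPM after dexamethasone, against 138 and 129 CPM after PBS. Both had overlapping groups, with log2 fold changes of −0.12 ± 0.16 (edgeR adjusted p = 0.661) and −0.0015 ± 0.14 (0.996). Mbtps1, the site-1 protease gene, had 216 and 223 CPM after dexamethasone, against 208 and 169 CPM after PBS (0.22 ± 0.15, edgeR adjusted p = 0.383). Its sign turned with the length trend removed, to −0.038. Mbtps2, the site-2 protease gene, had 30.4 and 33.5 CPM after dexamethasone, against 27.2 and 18.4 CPM after PBS (0.48 ± 0.20, edgeR adjusted p = 0.157). With PBS replicate 1 left out Mbtps2 was at 0.78, and with PBS replicate 2 left out it was at 0.22. Its exons share 2867 bases on the same strand with Yy2, which was counted 0 times in all 4 libraries. Reads in that stretch can be lost in counting, so the level of Mbtps2 is uncertain. Of the 3 genes that fell, Insig1 and Dhcr7 had no overlapping gene or near-identical copy, and Hmgcs1 overlapped the antisense gene Gm48342, counted 4 and 3 times after dexamethasone and 0 times in both PBS libraries.

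The PBS pools differed from each other over much of the pathway, and the dexamethasone pools did so less. The median gap between replicates, on the log2 CPM scale and without sign, was 0.0695 over the 29 members for the dexamethasone libraries, beside 0.19 over all genes tested. For the PBS libraries it was 0.29 over the members, beside 0.23 over all genes. PBS replicate 2 was above PBS replicate 1 for 20 of the 29 members and for 7961 of the 16027 genes tested. The gap was 2.35-fold for Pmvk, 2.02-fold for Idi1, 1.81-fold for Hsd17b7, 1.70-fold for Cyp51 and 1.69-fold for Msmo1. Dhcr7 was at 0.96 of replicate 1 in PBS replicate 2. PBS replicate 2 was also the library with the fewest reads and the most red blood cell RNA, and the part of these in the gap was not tested. Without PBS replicate 2 the members' median log2 fold change was −0.12, and Dhcr7, Hmgcs1 and Insig1 stood at −0.74, −0.68 and −0.74. Without PBS replicate 1 the members' median was −0.35.

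**Figure D4:**
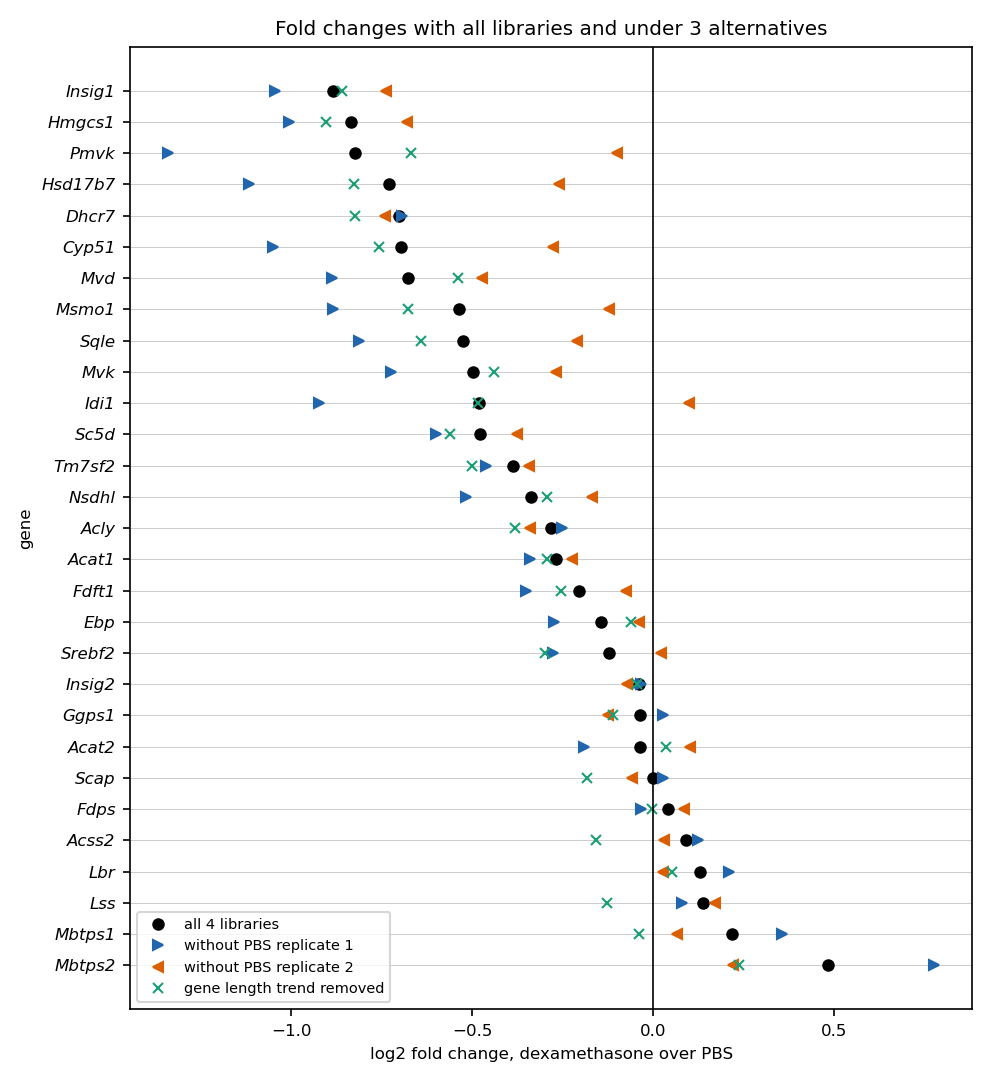
Log2 fold change of each gene, dexamethasone over PBS, with all 4 libraries (circles), without PBS replicate 1 (right-pointing triangles), without PBS replicate 2 (left-pointing triangles) and with the gene length trend removed (crosses). Idi1 moves between −0.92 and 0.10 with the PBS library left out, whereas Dhcr7 stays between −0.83 and −0.69 in these 4 fits.

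On the scale of CPM per kilobase of listed length the members covered a wide range. Acly was highest, at 368 after dexamethasone and 447 after PBS, followed by Dhcr7, at 98.6 after dexamethasone and 160 after PBS. Acat1 came next, at 40.3 after dexamethasone and 48.5 after PBS, and Msmo1 after it, at 26.9 after dexamethasone and 39.1 after PBS. Srebf2, at 26.3 after dexamethasone and 28.6 after PBS, was close to Msmo1 after dexamethasone. Beside Fdps, the lowest levels were those of Hsd17b7, at 2.24 after dexamethasone and 3.73 after PBS, Tm7sf2, at 2.51 after dexamethasone and 3.28 after PBS, Lbr, at 3.06 after dexamethasone and 2.80 after PBS, and Mbtps2, at 3.16 after dexamethasone and 2.25 after PBS. Their order after PBS was the reverse of that after dexamethasone. The listed length equals the merged exon length of GENCODE M21 for every member but Tm7sf2, whose listed 5593 bases exceed the 4403 of that release.

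The related transcription factor SREBP1 acts mainly on genes of fatty acid synthesis. Of 14 such genes listed, 3 rose and 0 fell (21.4% higher, beside 3.26% of all genes), with a median log2 fold change of 0.21. Gpam, an acyltransferase that starts glycerolipid synthesis, had 101 and 100 CPM after dexamethasone, against 63.3 and 40.9 CPM after PBS (0.95 ± 0.20, edgeR adjusted p = 0.0358), and did not pass with the replicate block (0.98, adjusted p = 0.0506). The acetyl-CoA carboxylase genes Acaca and Acacb had log2 fold changes of 0.71 ± 0.14 and 0.79 ± 0.16 (edgeR adjusted p = 0.0314 and 0.0283). With the length trend removed Acaca stood at 0.34 and Acacb at 0.55, and neither passed. They did not pass either with the replicate block (0.71 and 0.79) or without dexamethasone replicate 2 (0.72 and 0.63), nor did Acaca without PBS replicate 2 (0.59).

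Others of that list did not pass. The desaturase gene Scd1 had 731 and 633 CPM after dexamethasone, against 484 and 455 CPM after PBS (0.54 ± 0.15, edgeR adjusted p = 0.0693). Fasn, the fatty acid synthase gene, had 587 and 580 CPM after dexamethasone, against 443 and 436 CPM after PBS (0.41 ± 0.14, adjusted p = 0.107). Fads2, a desaturase of polyunsaturated fatty acids, had 959 and 1012 CPM after dexamethasone, against 1507 and 1262 CPM after PBS (−0.49 ± 0.16, adjusted p = 0.0896). For each of these genes the groups did not overlap, which was common. Of all genes tested, 30.8% had both dexamethasone libraries above both PBS libraries and 29.7% had both below.

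No gene of the other 4 related lists passed. These were 6 sterol-responsive genes outside synthesis (median log2 fold change −0.13, Npc2 nearest to passing at −0.30 ± 0.16), 14 genes of sterol-regulated degradation in the endoplasmic reticulum (0.028), 14 genes that use isoprenoids outside the sterol branch (−0.05) and 10 genes of the COPII coat, which carries Scap in vesicles (0.040). In the degradation list the ubiquitin ligase gene Rnf145 was at 0.60 ± 0.17 (edgeR adjusted p = 0.0702). Of the isoprenoid users, the prenyltransferase subunit gene Pggt1b was at 0.55 ± 0.21 (0.141), and of the coat genes Sec13 was at −0.47 ± 0.17 (0.117). At an unadjusted p under 0.05 there were 0 of 6, 3 of 14, 3 of 14 and 2 of 10 genes in these lists, beside 4403 of all 16027 genes.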

How the data were processed

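RNA-seq libraries were made from pooled right adrenal glands of 5 mice per group. The submitters' processing notes name HTSeq 0.6.1, STAR 2.5, CASAVA 1.8 and the build mm10 (GRCm38), without role or order, and the authors deposited whole-number counts per gene, not normalized. How reads were counted, and whether by strand, is not given in the sources used here. Genes with overlapping exons can therefore not be told apart with certainty. Column names were matched to samples by reading D as dexamethasone, S as saline and the digit as the replicate number; this is a reading of initials, and the letters F and M in the names are not explained in the labels. The sex of the mice is that given in the labels. The deposited file lists a gene length of unstated origin.

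Genes were kept with filterByExpr and scaled with TMM factors (0.951 to 1.04), and counts were tested with edgeR 4.0.16 (glmQLFit and glmQLFTest, R 4.3.3) on group alone, with 2 residual degrees of freedom. This fit moderates the dispersion of each gene toward a trend over all genes, so a p-value does not rest on that gene's own counts alone. Benjamini-Hochberg adjustment ran over all genes tested. Standard errors come from the log2 fold change and the root of its F statistic. Log2 CPM used a prior count of 2. The script was tested on simulated data. Alternatives were DESeq2 1.42.0, limma 3.58.1 (voom), 2 other scalings, 2 other filters, the replicate block, removal of a linear trend with log2 gene length from each library, and leaving out each library. Copies were sought with blastn 2.17.0 in GENCODE M21 transcripts, at 95% identity or more over at least 300 bases.

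The chi-square per degree of freedom between counts of the dexamethasone libraries was 17.3 and between those of the PBS libraries 23.0, so no library was taken as a repeat of another. All members are named, and per-library values follow a rule: members that passed, up to 3 more per step by p, and Srebf2, Scap and Insig2. In the other lists those that passed and up to 3 by p may be named. Members and lists were chosen with earlier results of these data known. No list was tested as a set. Some other genes of the pathway are not reported here.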

Additional observations from a re-analysis of the deposited data

How the results depend on the processing

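The number of genes higher was 523 and of genes lower 219 with all libraries; without each library in turn they ran from 337 to 1595 and from 147 to 1747, and the members lower from 2 to 12 and higher from 0 to 1. Scaling by library totals gave 893 higher (83.2% of calls, beside 70.5% with TMM), no filter 1384 higher and 1329 lower, DESeq2 913 and 868, and the length trend removed 334 higher (55.2% of calls). The members lower were 10 with no filter and 5 by DESeq2. The replicate numbers do not pair the libraries by their labels, and the correlation across genes of the replicate differences in the 2 groups was −0.027. With the replicate block 244 genes were higher, 89 lower and 1 member lower; with the length trend removed as well, 343 genes were higher, 290 lower and 4 members lower (Cyp51, Dhcr7, Hmgcs1 and Insig1). The members' median log2 fold change ran from −0.37 to −0.12 without each library.

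Signs turned for 11 members, none of which passed in the filtered fit of all libraries; all but Idi1 (−0.48) had a log2 fold change between −0.14 and 0.22 there. With the length trend removed, without and with the replicate block, these were Acss2 (−0.16 and −0.16), Acat2 (0.035 and 0.037), Fdps (−0.0041 and −0.030), Lss (−0.13 and −0.13) and Mbtps1 (−0.038 and −0.034). With library totals they were Acat2 (0.059), Ggps1 (0.055), Scap (0.090) and Insig2 (0.054), and with the stricter filter Scap (0.0032). Leaving out a library moved Acat2 between −0.19 and 0.10, Idi1 between −0.92 and 0.10, Fdps between −0.25 and 0.28, Ggps1 between −0.13 and 0.027, Ebp between −0.37 and 0.049, Srebf2 between −0.28 and 0.021 and Scap between −0.11 and 0.093. The cause of these shifts was not tested.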
